A study of Homo sapiens with 4 samples.

Results

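Accessible chromatin was described around 8 genes that control entry into S phase: the E-type cyclin genes CCNE1 and CCNE2, CDK2, which encodes their kinase partner, the activating transcription factor genes E2F1, E2F2 and E2F3, the pocket protein gene RB1, and CDKN1B, which encodes the CDK inhibitor p27. They are 8 of 19974 protein-coding genes on chromosomes 1 to 22 and X. A member region was any region of open chromatin touching the span of 1 of these genes or the 50 kb on either side of it, and 94 of the 138467 regions of the series met this rule. The genes were chosen by the presence, width and within-list rank of these same peaks, so the values are given as a description without a test. By ATAC-seq, which tags open DNA with a transposase, the series compared 2 DEK KO libraries with 2 WT control libraries of 786-O, an established renal carcinoma line of clear cell type. DEK KO cells carry Cas9 and DEK guide RNAs and were sorted as single cells, whereas WT control cells, labelled negative control with a wild-type genotype, come from a Cas9-expressing clone. Cas9 is thus shared by both groups. Whether replicates 1 and 2 stem from separate clones or cultures is not labelled, so the spread between them may be technical and a difference between groups may be one between clones.

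Cyclin E binds CDK2 at the end of G1, and the complex phosphorylates the RB1 protein, which otherwise holds E2F1, E2F2 and E2F3 inactive. Released E2F factors switch on replication genes and also genes of the switch itself, CCNE1 and E2F1 among them, while p27 binds and blocks cyclin E with CDK2. In renal tubule cells, as elsewhere, this switch separates resting from dividing cells. DEK binds DNA in chromatin and helps to place histones.

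On these chromosomes the deposited peak lists held 102760 and 99508 peaks in DEK KO replicates 1 and 2. In WT control replicates 1 and 2 they held 89563 and 90409 peaks. More calls in DEK KO are thus a trait of the whole series and not particular to a window. Why the DEK KO lists were longer was not tested. Read depth per library is unknown. A gene-end region, meaning a region within 1 kb of either end of a gene, was called in every list at PAX8, LHX1, CA12, CDH6 and VIM, which are known from renal carcinoma cells, and at 2 of 10 markers of other cell types (APOA1 and CDX2). PAX2, CA9, NNMT and NDUFA4L2, listed as COXFA4L2, had no such region.

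The stretches just before the listed starts of CCNE1, E2F1, E2F2, E2F3 and CDKN1B are shown because each lies wholly inside a called region and because E2F factors are known to bind promoters of this switch. Each run holds the 250 bases before a start, 5′ to 3′ on the gene's strand, from RefSeq on GRCh38.p14. Capitals mark the E2F letters, which were TTCCCGC as the first form, TTGGCGC as the second form and TTCGCGC as the third form, on either strand. Other forms were not searched, so TTGCCGC, which the E2F1 stretch holds on the opposite strand, is neither marked nor counted. For E2F3, which has 2 listed starts, both are given. The table held no entry for CCNE2 and CDK2, and the start it lists for RB1 lies inside the gene, 172699 bp from its beginning, where no list had a peak.
CCNE1, chr19:29811741-29811990, plus strand: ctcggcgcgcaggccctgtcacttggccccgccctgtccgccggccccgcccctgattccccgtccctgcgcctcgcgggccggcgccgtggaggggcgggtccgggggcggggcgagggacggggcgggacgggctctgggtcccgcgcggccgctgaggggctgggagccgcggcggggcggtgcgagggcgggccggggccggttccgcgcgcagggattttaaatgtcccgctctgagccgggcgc
E2F1, chr20:33686386-33686635, minus strand: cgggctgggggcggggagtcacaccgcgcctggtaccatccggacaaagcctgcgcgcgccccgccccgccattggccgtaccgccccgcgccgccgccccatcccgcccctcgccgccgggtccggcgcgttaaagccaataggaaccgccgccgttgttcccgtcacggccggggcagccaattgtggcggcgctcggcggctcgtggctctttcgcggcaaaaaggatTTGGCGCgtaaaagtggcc
E2F2, chr1:23531234-23531483, minus strand: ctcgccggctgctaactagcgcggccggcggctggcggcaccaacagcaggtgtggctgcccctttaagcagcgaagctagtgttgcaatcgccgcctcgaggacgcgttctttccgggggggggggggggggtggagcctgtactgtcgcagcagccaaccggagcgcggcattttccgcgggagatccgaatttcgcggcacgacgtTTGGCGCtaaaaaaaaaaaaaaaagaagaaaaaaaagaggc
E2F3 first start, chr6:20401629-20401878, plus strand: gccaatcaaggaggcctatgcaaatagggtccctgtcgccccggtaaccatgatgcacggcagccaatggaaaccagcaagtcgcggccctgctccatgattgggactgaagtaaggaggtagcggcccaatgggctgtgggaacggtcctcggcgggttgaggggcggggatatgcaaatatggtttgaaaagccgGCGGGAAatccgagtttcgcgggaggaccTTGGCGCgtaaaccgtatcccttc
E2F3 second start, chr6:20403364-20403613, plus strand: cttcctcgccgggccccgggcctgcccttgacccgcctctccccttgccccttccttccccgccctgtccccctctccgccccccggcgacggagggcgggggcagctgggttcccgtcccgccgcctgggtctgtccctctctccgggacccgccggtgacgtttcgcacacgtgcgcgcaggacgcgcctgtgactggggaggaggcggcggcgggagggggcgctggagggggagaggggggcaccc
CDKN1B, chr12:12717118-12717367, plus strand: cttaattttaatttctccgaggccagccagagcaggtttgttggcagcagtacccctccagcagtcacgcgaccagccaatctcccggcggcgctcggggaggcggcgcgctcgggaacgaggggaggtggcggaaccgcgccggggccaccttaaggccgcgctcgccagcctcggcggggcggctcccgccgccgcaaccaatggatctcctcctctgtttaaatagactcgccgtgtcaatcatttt

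The E2F letters stood in 3 of these 6 stretches, against 11.8% of 22156 such stretches before the listed starts of protein-coding genes. Unlike the 6, which include both E2F3 starts, the 22156 were not limited to called regions. They were also not matched for base composition. TTGGCGC lay 19 to 13 bases before the start of E2F1, 41 to 35 bases before that of E2F2 and 24 to 18 bases before the first start of E2F3, which also had TTCCCGC on the opposite strand 53 to 47 bases before it. Of all stretches, 3.24% hold TTGGCGC and 6.96% hold TTCCCGC on either strand. The stretch of CCNE1 had none of the E2F letters but 7 matches to the GC box GGGCGG, which binds SP1 and which 53.7% of all stretches hold. CCAAT, the NF-Y letters present in 32.7% of all stretches, occurred 3 times at E2F1, 4 times at the first start of E2F3 and 2 times at CDKN1B, and was absent at CCNE1, E2F2 and the second start of E2F3. The second start of E2F3 had the CRE letters TGACG (24.1% of all stretches) and CACGTG, the E-box (7.37%), inside which both matches of the HIF core ACGTG (20.2%) lie. Of the other stretches shown, E2F1 alone held TGACG. The AP-1 letters TGANTCA (5.36% of all) were in none of the 6. Base composition also ranged widely, with 81.2% G and C at CCNE1 and 58.8% at the first start of E2F3, against a median of 62.0%.

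All 8 genes had a gene-end region called in every list, which 60.0% of all protein-coding genes had. None had a KO-only gene-end region, which 1.83% of all genes had, or a WT-only one, which 1.13% had. Over the windows as a whole, 54 of 94 regions (57.4%, 95% exact binomial interval 46.8 to 67.6, counting error only) were called in every list, against 45.3% of all regions. KO-only regions, found in DEK KO replicates 1 and 2 but in no WT control list, numbered 6 (6.38%, interval 2.38 to 13.4), and 6.26% of all regions were KO-only. WT-only regions, found in WT control replicates 1 and 2 but in no DEK KO list, numbered 4 (4.26%, interval 1.17 to 10.5), and 2.57% of all regions were WT-only. The intervals treat the regions as independent draws, but these share 8 windows that were chosen with the values known. They are therefore no test against the shares of all regions. The 6 KO-only regions lay around CCNE1 (4) and E2F3 (2), and the 4 WT-only regions around RB1 (2), CDK2 (1) and CDKN1B (1). At least 1 KO-only region was thus present in 2 of the 8 windows, against 40.6% of all gene windows, and at least 1 WT-only region in 3, against 19.8%. A surplus of at least 2 KO-only over WT-only regions, present in 10.1% of all gene windows, was found at CCNE1 and E2F3, and the reverse surplus of at least 2, present in 1.91%, at RB1. These shares are not matched for window length, which was 278 kb at RB1, 192 kb at E2F3 and 112 kb at CCNE1. CCNE2, E2F1 and E2F2 had neither kind. No KO-only or WT-only region touched the body of any of the 8 genes. Leaving out a library loosens the class: KO-only regions then numbered 11 without DEK KO replicate 1, 15 without DEK KO replicate 2 and 10 without WT control replicate 1, and WT-only regions 7 without WT control replicate 2.

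The 8 windows together held 76 and 73 peaks in DEK KO replicates 1 and 2 and 69 and 67 peaks in WT control replicates 1 and 2, that is 74.5 ± 2.12 (SD, n = 2) and 68.0 ± 1.41 (n = 2). The groups did not overlap, but the DEK KO lists were also the longer ones. Per 1000 peaks of its own list, the windows had 0.740 and 0.734 peaks in the DEK KO libraries and 0.770 and 0.741 in the WT control libraries. The surplus of DEK KO was thus no longer present. DEK KO replicate 1 and WT control replicate 2 were nearly equal, and the mean difference of -0.0191 was smaller than the WT control SD of 0.0207. More peaks in both DEK KO lists than in either WT control list were found at CCNE1, E2F2 and E2F3, against 24.5% of all gene windows. Fewer were found at CDK2 and CDKN1B, against 4.71% of all gene windows. In the plot of peak numbers by gene, CCNE1 has 4 more peaks in each DEK KO list than in each WT control list. Its counts do not differ between replicates, though the regions called differ in part.

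**Figure D1:**
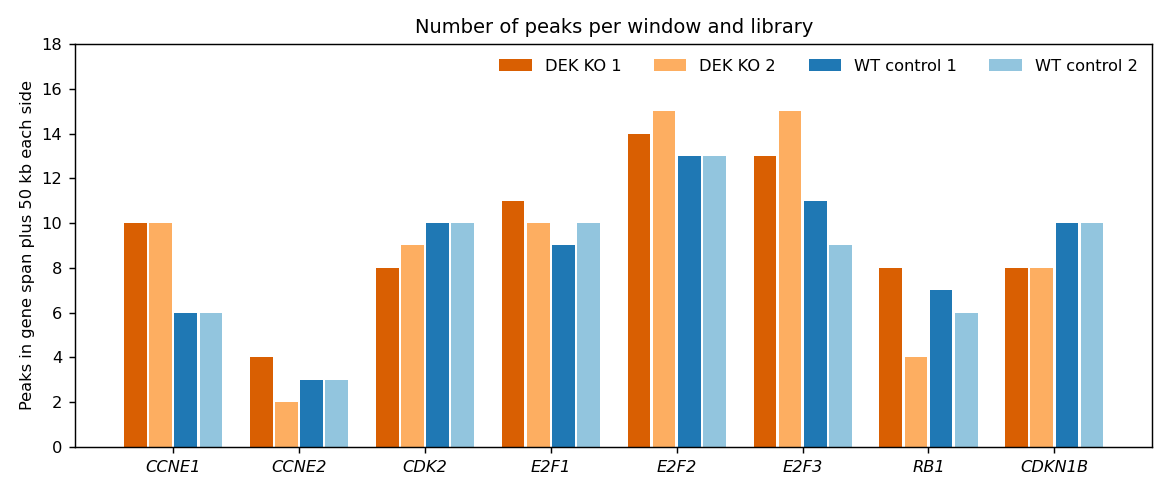
Number of peaks (vertical axis) in the span of each gene plus 50 kb on either side, by gene (horizontal axis) and library, with 1 bar for each of the 2 DEK KO and 2 WT control libraries. CCNE1 has 10 and 10 peaks in DEK KO and 6 and 6 in WT control, whereas CDKN1B has 8 and 8 in DEK KO and 10 and 10 in WT control.

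CCNE1, the cyclin gene of entry into S phase, lies on chromosome 19 (29811991 to 29824312, plus strand) with no other protein-coding gene within 50 kb. Its nearest such neighbours are C19orf12, 96.2 kb below, and URI1, 99.3 kb above. The window held 10 and 10 peaks in DEK KO replicates 1 and 2 and 6 and 6 in WT control replicates 1 and 2, covering 6806 and 6185 bp in DEK KO and 4425 and 3935 bp in WT control. Of its 13 regions, 5 were called in every list, 4 were KO-only, none was WT-only, and the other 4 were each called in a single list. Only 129 protein-coding genes (0.646%) had at least 4 KO-only and 0 WT-only regions in their windows, and CCNE1 was chosen with this pattern known.

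Strength within a list is given as the percentile of a peak's deposited −log10 p among all peaks of that list, so that 100 is the strongest. Ranks in lists of different length are not comparable. A difference between groups is therefore named only where it holds with every list cut to the length of the shortest, 89563 peaks, called equal length here. The cut drops the weakest peaks of the longer lists, so it can only lower percentiles, and it lowers those of DEK KO more. The region at the CCNE1 start (29811243 to 29812018), which holds the sequence shown, had percentiles of 49.2 and 40.4 in DEK KO and 45.9 and 43.5 in WT control. These overlap, and the region was of middling strength in each list. At equal length they were 41.7 and 33.7 in DEK KO and 45.9 and 42.9 in WT control, a separation seen only after this cut. Upstream, a region 6.08 kb before the start (29805404 to 29806423) was strong everywhere, with percentiles of 82.8 and 85.4 in DEK KO and 70.7 and 74.3 in WT control, and the groups did not overlap, also at equal length, with 80.3 and 83.7 in DEK KO and 70.7 and 74.0 in WT control. It was also wider, with 940 and 1020 bp in DEK KO and 841 and 846 bp in WT control. A region 33.1 kb after the start (29844429 to 29845831) was the widest of the locus, with percentiles from 83.8 to 87.1 in the 4 lists. At equal length they were 81.5 and 83.9 in DEK KO and 85.1 and 87.0 in WT control, without overlap, whereas in the full lists the groups overlapped.

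The KO-only regions of CCNE1 lay between genes, 1 upstream and 3 downstream. The first downstream region (29831098 to 29831870), 19.5 kb after the start and 6.79 kb beyond the gene's far end, had DEK KO percentiles of 49.4 and 54.3. Its folds over background, as the authors' caller gave them, were 6.81 and 7.59. The next, 29.6 kb after the start (29841320 to 29841918), had percentiles of 47.5 and 48.0 with low folds of 3.30 and 3.39. The last, 48.7 kb after the start (29860438 to 29860895), had percentiles of 42.4 and 41.6. In the 3 downstream regions the lower of the 2 percentiles exceeded that of 89.3%, 87.7% and 81.5% of all KO-only regions, in order of distance. The upstream region, 33.6 kb before the start (29778244 to 29778579), was near the calling limit, with percentiles of 11.9 and 6.22. It dropped out with lists of equal length or a −log10 q of at least 5, while the 3 downstream regions stayed KO-only under both.

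**Figure D2:**
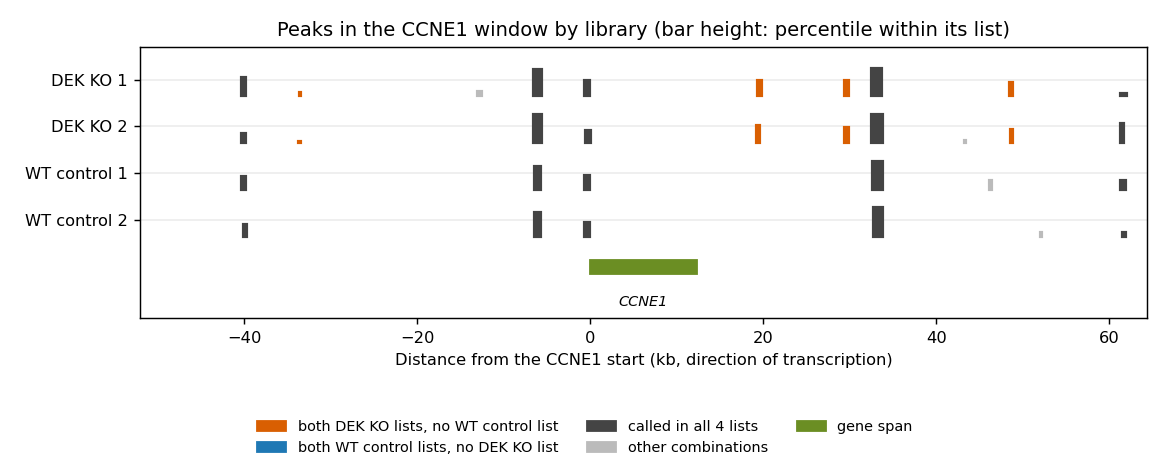
Peaks around CCNE1 by library, 2 DEK KO rows above 2 WT control rows, along the distance from the gene's start in kb. Bars span the peaks, their height is the percentile within the list (full row height 100), and color gives the lists that called the region. The 4 orange KO-only regions lie at -33.6, 19.5, 29.6 and 48.7 kb, and no WT-only region is present.

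Outside this window but within 500 kb of CCNE1, 3 of 38 regions (7.89%) were KO-only and 1 (2.63%) was WT-only, beside 6.26% and 2.57% of all regions. On chromosome 19 as a whole 82.0% of the one-genotype regions were KO-only, against 70.9% in the genome. The part of the chromosome's share in the CCNE1 counts was not tested. The windows of 9122 genes over 1 Mb from the 8 genes were within 10% of the length of that of CCNE1. Of these, 22 (0.241%) had at least 4 KO-only and 0 WT-only regions. The 9122 windows had a median of 8.0 regions, against 13 in that of CCNE1. Neither this share nor the 0.646% of all genes was recounted at equal list length, where CCNE1 kept 3 KO-only regions. The 3 genes whose peak numbers in the 4 libraries were most like those of CCNE1 were CIMIP1, TMEM138 and EIF4E1B. They differed from CCNE1 by 1 peak summed over the 4 libraries, a place that 5 genes shared, and had 3, 2 and 2 KO-only and 0, 0 and 0 WT-only regions.

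CCNE2, the second E-type cyclin gene (chromosome 8, 94880224 to 94896693), had the fewest peaks of the 8 windows, with 4 and 2 in DEK KO and 3 and 3 in WT control. Its main region (94894722 to 94896922) covers the gene's end of higher coordinate and the lower end of NDUFAF6, an assembly factor of respiratory complex I, so its signal cannot be assigned to 1 of the genes. Percentiles there were 86.3 and 84.4 in DEK KO and 90.8 and 89.5 in WT control, without overlap also at equal length (84.3 and 82.6 in DEK KO, 90.8 and 89.4 in WT control). In width the order was the opposite, 1828 and 2201 bp in DEK KO and 1825 and 1783 bp in WT control. A region inside NDUFAF6 (94905088 to 94905857) was also called in every list, and 3 weak regions were called in 1 or 2 lists each.

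CDK2, the kinase gene (chromosome 12, 55966830 to 55972789), sits among closely packed genes, and 8 of its 10 regions were called in every list. The window had 8 and 9 peaks in DEK KO and 10 and 10 in WT control. The region at its lower end (55966170 to 55967448), shared with PMEL, a melanosome protein gene, had percentiles of 81.9 and 79.3 in DEK KO and 89.5 and 87.5 in WT control, which did not overlap, nor did the 79.2 and 77.0 in DEK KO and 89.5 and 87.4 in WT control at equal length. The region beyond its higher end (55973079 to 55974464) overlaps RAB5B, an endosomal GTPase gene. It was the strongest of all 94, with percentiles from 98.2 to 99.6. The WT-only region of this window (55933000 to 55933432) lay inside DGKA, a diacylglycerol kinase gene, 33.6 kb below CDK2. Its WT control percentiles were 11.5 and 3.69, close to the calling limit.

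The activator genes E2F1 and E2F2 had no one-genotype region. E2F1 (chromosome 20, 33675477 to 33686385, minus strand) had 11 and 10 peaks in DEK KO and 9 and 10 in WT control. The region at its start (33686333 to 33686878), with the E2F letters shown, was narrow and strong, with percentiles of 80.9 and 87.1 in DEK KO and 89.0 and 81.2 in WT control. At equal list length each of its 8 regions called in all lists had overlapping percentiles. E2F2 (chromosome 1, 23505212 to 23531233, minus strand) had the most shared regions, 12 of 15, and 14 and 15 peaks in DEK KO against 13 and 13 in WT control. Its start region (23530930 to 23531746) was the weakest of the 8 gene-end regions in WT control replicate 1 and in DEK KO replicate 1, with percentiles of 23.6 and 48.5 in DEK KO and 33.6 and 52.7 in WT control. At equal list length 7 of the 12 shared regions of its window ranked lower in both DEK KO lists than in either WT control list (58.3%, against 28.0% of all shared regions) and 1 ranked higher (8.33%, against 22.5%). In the full lists the groups still overlapped at the region 46.7 kb after the start (71.7 and 71.3 in DEK KO, 81.9 and 70.9 in WT control). The same held 46.1 kb before the start (75.9 and 67.1 in DEK KO, 74.6 and 85.0 in WT control). Of the 7, only the region 2.82 kb after the start lay inside E2F2, and the one 46.7 kb after it lay at an end of ASAP3. The others lay 13.4 to 46.1 kb before the start, with ID3, a gene for an inhibitor of bHLH factors, as the nearest gene end. Among them were both regions within 1 kb of ID3, of which the one at its higher end (23559295 to 23559814) had percentiles of 31.3 and 40.4 in DEK KO and 65.0 and 61.1 in WT control.

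E2F3 (chromosome 6, 20401879 to 20493714, plus strand) showed the second surplus of DEK KO calls, with 13 and 15 peaks in DEK KO and 11 and 9 in WT control. The region at its first start (20400907 to 20402068) was strong in every list, with percentiles of 82.5 and 94.5 in DEK KO and 86.1 and 94.6 in WT control. It was narrower in DEK KO, with 812 and 920 bp against 1162 and 1028 bp in WT control. The region at the second start (20403327 to 20403948) was called with percentiles of 54.8 and 75.2 in DEK KO and 53.8 in WT control replicate 1, and was missing from the list of WT control replicate 2. Both KO-only regions lay outside the gene. The one 31.3 kb before the start (20370349 to 20370864) had percentiles of 35.5 and 39.4, and the one 1.55 kb beyond the gene's far end (20495261 to 20495526) had 26.1 and 33.3. Their lower percentiles exceeded those of 74.5% and 56.5% of all KO-only regions. A region 53.7 kb into the gene (20455213 to 20456025) had percentiles of 54.0 and 44.8 in DEK KO and 17.1 in WT control replicate 1, with no peak in WT control replicate 2. The CDKAL1 end region in this window (20534039 to 20535311) was called in every list.

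RB1, the gene of the pocket protein that restrains E2F factors (chromosome 13, 48303751 to 48481890, plus strand), had 8 and 4 peaks in DEK KO and 7 and 6 in WT control. The region at its start (48303101 to 48304739) was broad and strong, with percentiles of 84.4 and 88.4 in DEK KO and 89.5 and 85.5 in WT control and widths of 1546 and 1521 bp in DEK KO and 1639 and 1590 bp in WT control. The percentiles overlap, and the widths do not. Inside the gene, 1 region was called in every list (48398268 to 48399105), where LPAR6, a lysophosphatidic acid receptor gene, overlaps RB1. Its percentiles were 27.9 and 2.52 in DEK KO and 48.9 and 38.7 in WT control. At equal length it was no longer called in every list. Both WT-only regions of the window belong by position to other genes. The one inside ITM2B (48258011 to 48258618), 45.4 kb before RB1, had WT control percentiles of 53.1 and 43.5, and the one inside RCBTB2 (48499021 to 48499783) had 48.9 and 54.7. Their lower percentiles exceeded those of 92.5% and 95.5% of all WT-only regions. A strong RCBTB2 region at the window's edge (48531865 to 48533369) was called in every list, but only the peak of WT control replicate 1 reached into the window.

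CDKN1B (chromosome 12, 12717368 to 12722369, plus strand), the p27 gene, had 8 and 8 peaks in DEK KO and 10 and 10 in WT control. Its start region (12716756 to 12718956) also touches GPR19, an orphan receptor gene. The percentiles there were 28.6 and 66.0 in DEK KO and 60.6 and 56.7 in WT control, so DEK KO replicate 1 was low and replicate 2 high, with WT control between them. WT control replicate 1 had 2 peaks in this region, of which the stronger is given. Its WT-only region (12726675 to 12727096) lay inside APOLD1 and within 1 kb of an end of that gene, with WT control percentiles of 35.5 and 17.0. A region 41.6 kb after the CDKN1B start, inside APOLD1 (12758514 to 12759470), ranked higher in DEK KO, with 84.7 and 83.3 against 60.3 and 64.4 in WT control (82.4 and 81.5 against 60.3 and 64.0 at equal length), and was wider, with 929 and 679 bp in DEK KO against 481 and 594 bp in WT control.

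**Figure D3:**
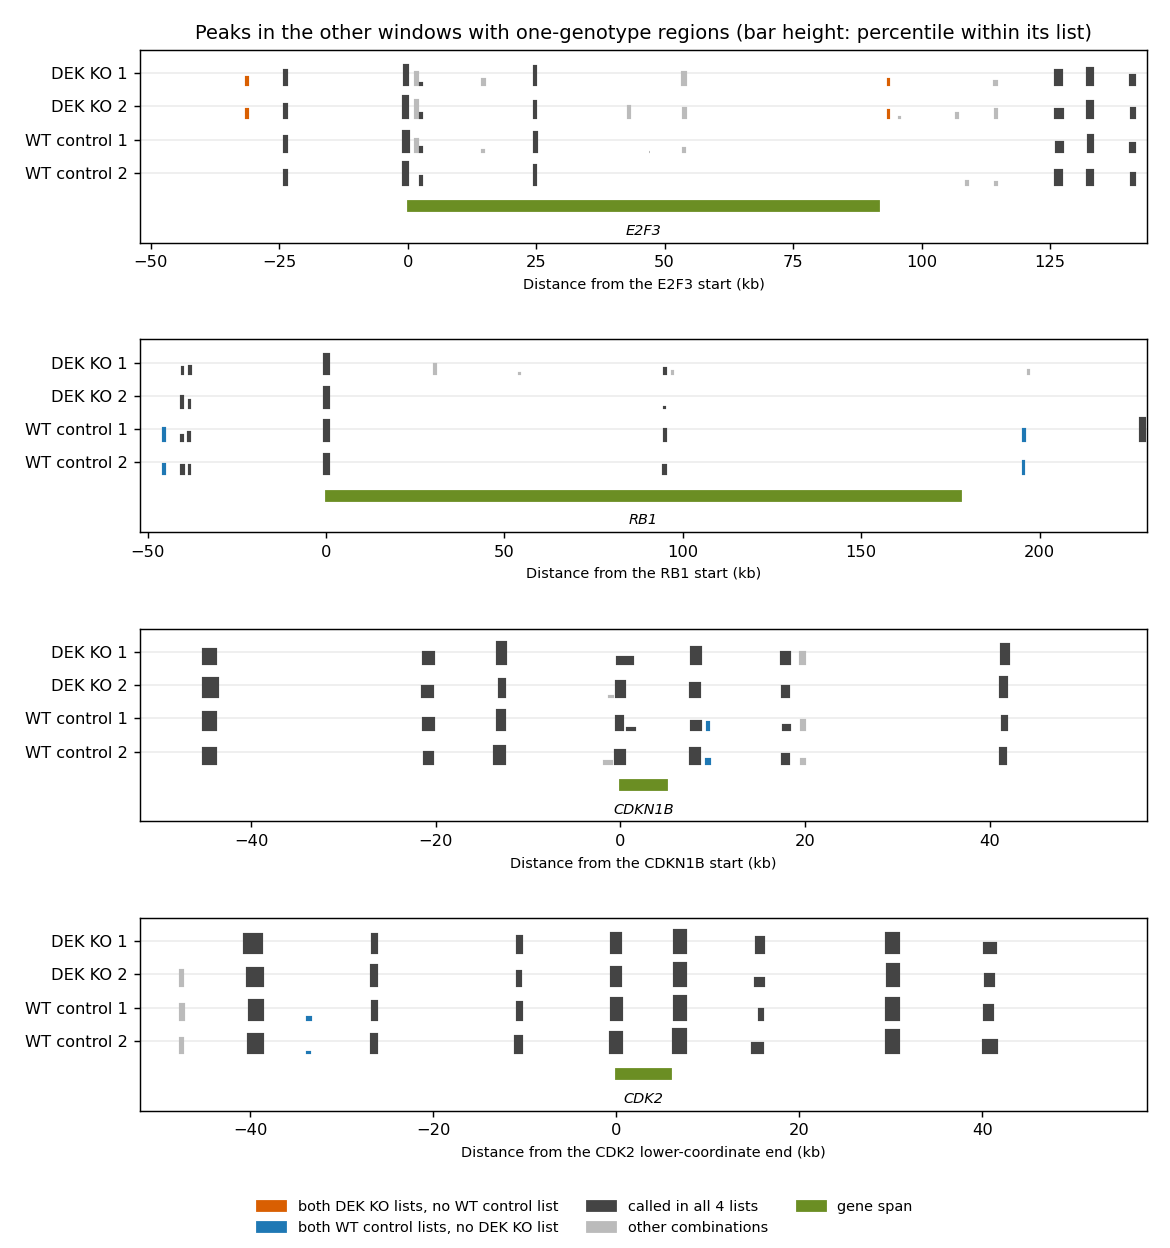
Peaks around E2F3, RB1, CDKN1B and CDK2 by library, 2 DEK KO rows above 2 WT control rows, along the distance in kb from the gene's start (for CDK2, whose strand is not listed, from its end of lower coordinate). Bar height is the percentile within the list (full row height 100). Orange KO-only regions appear at E2F3 at -31.3 and 93.5 kb, and blue WT-only regions at RB1, CDKN1B and CDK2.

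At the gene-end regions of the 8 genes, both DEK KO percentiles were below both WT control percentiles at CCNE2 and CDK2 in the full lists, and the groups overlapped at the other 6, of which CCNE1 no longer overlapped at equal length. The same was counted over all regions at equal length. Of the 51 regions of the windows then called in all lists, 4 (7.84%) ranked higher in both DEK KO lists, which 22.5% of all shared regions did. Another 18 (35.3%) ranked lower in both, which 28.0% of all shared regions did. Without the regions of E2F2, left out after its values were seen, 11 of 39 (28.2%) ranked lower and 3 (7.69%) higher. In width, 10 were wider in both DEK KO lists (19.6%, against 18.3% of all shared regions) and 10 narrower (19.6%, against 22.7%).

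**Figure D4:**
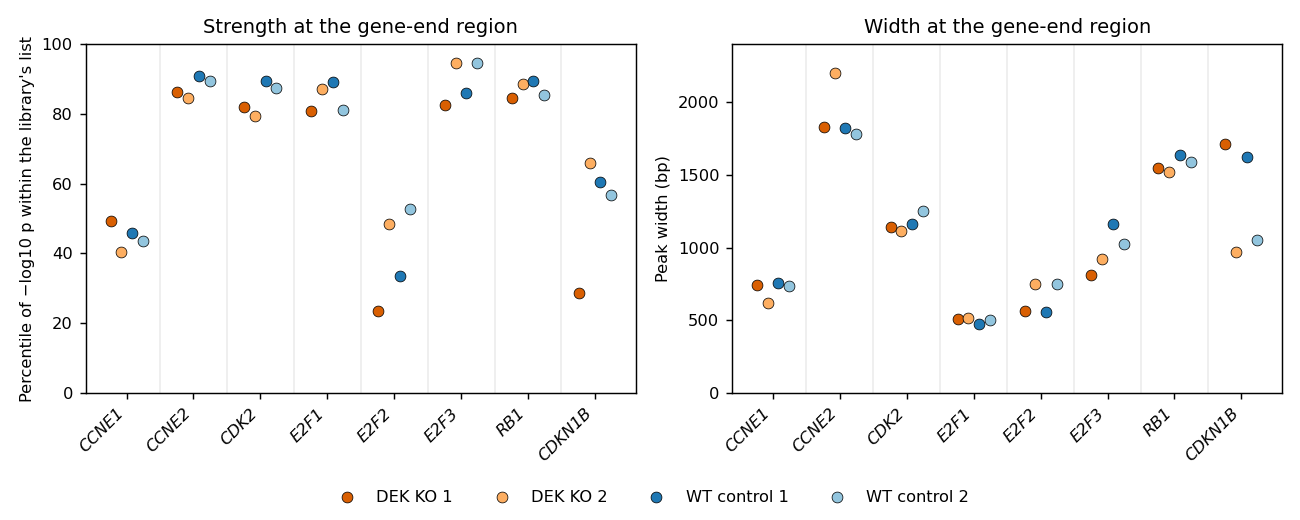
Percentile of −log10 p within the library's list (left) and peak width in bp (right) at the gene-end region nearest to each of the 8 genes, with 1 point per library and DEK KO points left of WT control points. The 4 points of CCNE1 lie between 40.4 and 49.2, and those of CDKN1B spread from 28.6 to 66.0.

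Other genes of the G1/S pathway were taken from 6 lists holding 76 genes. More KO-only than WT-only regions were found in the windows of 18 (23.7%) and the reverse in 12 (15.8%), against 34.0% and 11.5% of all protein-coding genes. A gene-end region in every list was present at 69 of the 76 (90.8%), against 60.0% of all protein-coding genes. D-type cyclins and their kinases, which start RB1 phosphorylation, had 5 KO-only and 2 WT-only among 94 regions. CCND1 (cyclin D1) had 2 and 0, with 9 and 8 peaks in DEK KO and 5 and 7 in WT control, and CDK6, a kinase of the D-type cyclins, had 3 and 1, with 36 and 36 peaks in DEK KO and 32 and 33 in WT control. The other CDK inhibitors had 1 KO-only and 2 WT-only among 43 regions. The KO-only one was a gene-end region of CDKN1C, the p57 gene, and the CDKN2B window had 0 peaks in every list. Whether the DNA of the CDKN2B window is present in these cells was not tested.

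Other E2F, DP, pocket protein and DREAM complex genes had 8 KO-only and 4 WT-only among 197 regions. MYBL2, a DREAM target and activator of mitotic genes, had 3 and 0, with 10 and 15 peaks in DEK KO and 10 and 9 in WT control. Genes for the turnover of cyclin E and p27, SKP2 and FBXW7 among them, had 2 and 2 among 129 regions. Later cyclins, CDKs and their regulators had 4 and 6 among 127 regions, and CCNA1, a cyclin A gene, had 0 and 2, with 3 and 4 peaks in DEK KO and 6 and 5 in WT control. E2F target genes of DNA replication had 13 and 6 among 278 regions, with 2 and 0 at MCM5, a helicase subunit gene, and at GINS3, a gene of the helicase's GINS complex. In each of the 6 lists the KO-only share, from 1.55% to 5.32%, was below the 6.26% of all regions. The WT-only share was 4.65% for the other CDK inhibitors and 4.72% for the later cyclins, above the 2.57% of all regions, and from 1.55% to 2.16% in the other 4 lists, below it.

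**Figure D5:**
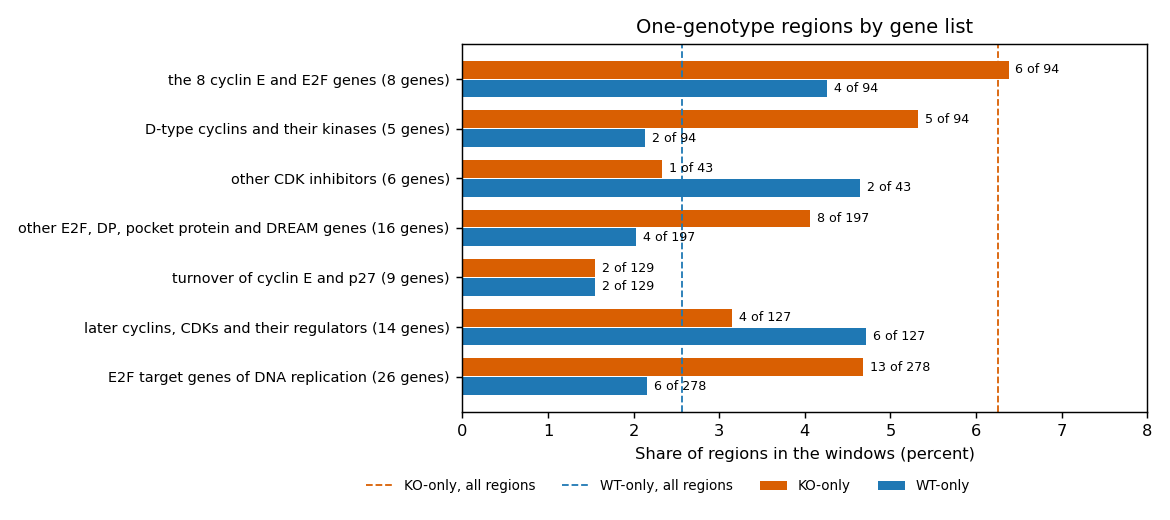
Share of regions in the windows that are KO-only (orange) or WT-only (blue), in percent, for the 8 genes and 6 further lists of the G1/S pathway, with the share over all regions as dashed lines. KO-only shares run from 1.55% to 6.38%, beside 6.26% of all regions.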

How the data were processed

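ATAC-seq peaks of 4 libraries of 786-O cells were analysed, 2 DEK KO and 2 WT control. The authors deposited 1 narrowPeak list per library, so peaks were called per library. Per the submitters' processing notes, MACS2 2.2.7.1, Picard 2.26.9, SAMtools 1.7, Bowtie2 2.2.5 and cutadapt 1.18 were among the tools, on GRCh38. Settings and any shift of reads for the transposase are unknown, and the labels' extraction text describes RNA. The deposited columns hold a whole-number score, the fold (ratio) over background, and −log10 p and −log10 q values. They describe and rank peaks within a list. The lowest deposited −log10 q was 1.30 to 1.32.

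Peaks outside chromosomes 1 to 22 and X were dropped, and peaks that share at least 1 bp across lists were joined into regions. RefSeq's gene table (GRCh38.p14) gave the gene spans, and all 8 genes and those of the other lists matched it. Strand and starts came from a RefSeq promoter table, read on both strands for motifs. Pathway genes named with their own counts had a surplus of at least 2 one-genotype regions or a one-genotype gene-end region. CDKN2B was added for its window without peaks. A marker gene of the renal list is not reported here. Genes like CCNE1 were ranked by summed absolute differences in peaks per window. The genes and lists were chosen with earlier results of these data known, and no test was run between groups: 2 libraries against 2 cannot give a two-sided exact permutation p below 0.333. Joining, classing and motif counting were tested on simulated data. Alternatives were equal list length, a −log10 q of at least 5, 50% overlap, other windows and leaving out each library. Python 3.11.15 with numpy 2.4.6, pandas 2.3.3, scipy 1.17.1 and matplotlib 3.10.9 was used.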

Additional observations from a re-analysis of the deposited data

How the results depend on the processing

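No paired analysis was possible because the results come from no test, although the labels give both groups replicates 1 and 2. With lists cut to equal length the difference in peaks between DEK KO and WT control over the 8 windows was -0.5 in place of 6.5, and per 1000 list peaks it was -0.0191. With a −log10 q of at least 5 it was 3.5 and the WT-only regions numbered 2. In gene spans alone the difference was 3.5, and KO-only regions, WT-only regions and KO-only regions of CCNE1 each numbered 0. With 100 kb on either side the difference was 9.0. Without 1 library at a time, KO-only regions ranged from 7 to 15, WT-only regions from 5 to 7, KO-only regions of CCNE1 from 4 to 5, WT-only regions of CCNE1 from 0 to 1 and the difference in peaks from 5.0 to 8.0. The WT-only region of CCNE1 was a different one in each case. Without WT control replicate 1 it lay 52.1 kb after the start, and without WT control replicate 2 it lay 46.2 kb after it. Each was a peak of a single WT control list. CCNE1 kept 3 KO-only regions at equal list length and at the stricter −log10 q, and 4 with 50% overlap or 100 kb. All 8 genes had a gene-end region in every list under each of these settings. The causes were not tested. Depth is unknown, and a missing peak does not show closed chromatin.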
